A study of Bos taurus with 18 samples.

Results

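The 94 CpGs taken here as assigned to ADCYAP1 lie in a single stretch of chromosome 24 (chr24:36376704-36390871, bosTau8, 14168 bp). They are among the 31500 CpGs tested in bovine EBTr cells. Whether tested CpGs outside the stretch have the same nearest gene was not determined. The stretch was taken as all tested CpGs between these positions, where the study lists ADCYAP1 as the gene with the nearest start site. That start site lies far outside the stretch and the assignment has no limit on distance, so that ADCYAP1 is here the name of the nearest listed gene and not of a gene body or promoter. Whether the CpGs fall in an exon, an intron, a UTR or another annotated feature was not determined here, because no genome of this build was used. Some of the 94 are on the study's own lists of cytosines that differed between treatments of these same libraries, so the calls given for them are a description of these libraries.

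EBTr is a fibroblast line from the trachea of a bovine embryo, and DNA methylation was measured in it by reduced representation bisulfite sequencing (RRBS), which reads CpG-rich fragments after a restriction digest and bisulfite treatment. There were 18 libraries, 3 for each of 6 treatments. The Low treatments had 1 g/L glucose and the High treatments 4.5 g/L. Each was combined with Control, ×2.5 or ×5 amounts of epigenetic modifiers (EM), namely methionine, folate, choline and vitamin B12. The labels raise methionine like the others, by 2.5 and 5 times, whereas the methods of the study give it a lower multiple in both supplemented media. The Control medium held basal amounts of the EM, so no treatment was without them. All 6 treatments shared the same basal medium with fetal bovine serum, antibiotics and pyruvate. The cells were passaged in their treatment medium before DNA was taken. All libraries come from the 1 cell line, and the 3 libraries of a treatment come from tubes frozen from it. Nothing states that these tubes were separate cultures, so the p-values measure the spread between tubes, which may be technical. The labels name total RNA as the molecule, but their extraction text describes DNA, and the cell type cannot be checked against marker genes with CpG values.

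ADCYAP1 encodes PACAP, a neuropeptide that acts on G protein-coupled receptors and raises cyclic AMP in its target cells. A methylated CpG carries a methyl group on its cytosine, and the group is taken from S-adenosylmethionine, which cells make from methionine. Folate, choline and vitamin B12 feed the reactions that regenerate methionine, so the EM supplement supplies the pathway that delivers methyl groups. Most CpGs of vertebrate genomes outside CpG islands are methylated. The expression of ADCYAP1 was not analysed here.

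The deposited value of a CpG in a library was read as an M-value, which is the log2 of methylated over unmethylated reads after an offset is added, and the level in percent used here is the share that this ratio implies. That positive values stand for methylation was taken from the workflow the study cites and from the mostly positive values. With the opposite sign every direction given here would turn. The number of reads behind each value was not given with it and was not worked back from the levels. No counting error is therefore given. The offset pulls levels towards the middle where reads are few, so high levels read lower and low levels higher there. Over all tested CpGs the mean level of a library lay between 67.2% and 70.0%, and the spread of its M-values was narrowest in Low Control 3 (SD of 1.58) and widest in Low ×5 1 (SD of 1.83). Differences between treatments are given on the log2 scale of the M-values unless they are called percentage points. A CpG was called where limma, fitted to all tested CpGs, gave an unadjusted p-value under 0.01, the limit the study used. The words rose and fell are used of called values alone. For each comparison the share of all tested CpGs called in the same direction is the background against which a count of the 94 is to be read.

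The mean level over the 94 CpGs differed by less than 3 percentage points in each of the 10 contrasts of treatments. Its mean was higher with added EM in Low and lower with added EM in High. In Low Control the 3 libraries had mean levels of 69.5%, 66.8% and 66.4%, a mean of 67.6% ± 1.71 (SD, n = 3). The mean was 69.5% ± 0.743 in Low ×2.5 and 70.0% ± 0.566 in Low ×5 (SD, n = 3 each). In High Control it was 70.1% ± 0.299, in High ×2.5 69.0% ± 0.801 and in High ×5 67.5% ± 0.747 (SD, n = 3 each). Low Control and High ×5 thus had the lowest means, and Low Control 1 lay above the other Low Control libraries and inside the range of the supplemented Low libraries.

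All 3 High ×5 libraries lay below all 3 High Control libraries in this mean, a difference of -2.61 percentage points (exact permutation test, two-sided, p = 0.1). With 3 libraries against 3 this test cannot give a p-value below 0.1. The groups also did not overlap in High ×5 vs. High ×2.5 (-1.55 points), High ×5 vs. Low ×5 (-2.51 points) and High Control vs. Low Control (2.52 points), each with an exact permutation p = 0.1. The groups overlapped in Low ×5 vs. Low Control (2.43 points, exact p = 0.2), in Low ×2.5 vs. Low Control (1.895 points, exact p = 0.2) and in High ×2.5 vs. High Control (-1.05 points, exact p = 0.2). High ×5 and Low Control, which differ in both glucose and EM, differed by -0.0839 points (exact p = 1). Averaged over the EM levels, High minus Low was -0.138 points, with an exact permutation p = 0.835 over the 18 libraries.

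The mean over all 31500 CpGs was 68.2%, 69.4% and 69.5% in Low Control, ×2.5 and ×5, and 69.2%, 68.8% and 68.3% in High Control, ×2.5 and ×5. For Low ×5 vs. Low Control the difference was 1.28 points over all CpGs beside 2.43 over the 94, and for High ×5 vs. High Control it was -0.912 beside -2.61. Over all CpGs the High ×5 libraries (68.67%, 67.59% and 68.65%) also lay below all High Control libraries (69.62%, 68.85% and 69.18%). They lay below all Low ×5 libraries (70.02%, 69.33% and 69.08%) as well. In High ×5 vs. High ×2.5 and High Control vs. Low Control the groups overlapped over all CpGs. Where the text gives a count "after centring", each library had been shifted to the same median M-value, and after quantile normalization all libraries had the same distribution of values.

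**Figure D1:**
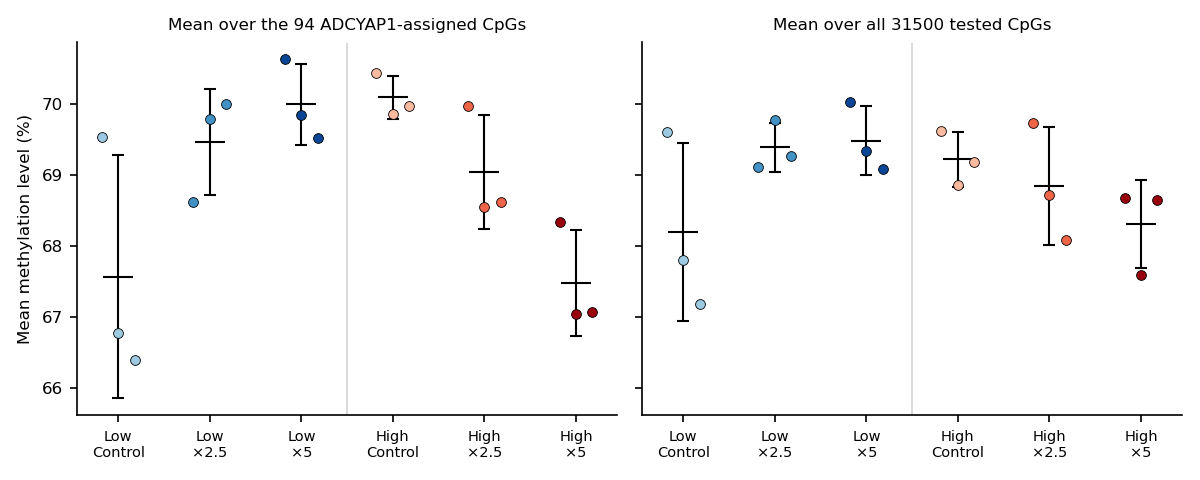
Mean methylation level (%) of each library over the 94 ADCYAP1-assigned CpGs (left) and over all 31500 tested CpGs (right), by treatment; points are libraries 1 to 3 from left to right, the horizontal line is the mean and the bars are ± 1 SD (n = 3), and the axis does not start at 0. The 94 CpGs had treatment means from 67.5% to 70.1%, and the 3 High ×5 libraries lay below the 3 High Control libraries in both panels.

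Along the stretch the level changed far more between neighbouring CpGs than between treatments. The CpGs are numbered 1 to 94 in order of position, and gaps of over 100 bp divide them into 10 clusters of 3 to 19 CpGs. Of the 94, 3 had a mean level under 10%, 16 lay between 10% and 50%, 35 between 50% and 80% and 40 over 80%. The median of the 94 was 75.3%, and that of all tested CpGs 75.5%. The nearest tested CpG outside the stretch was 3.958 kb before CpG 1, and the next after CpG 94 was 10.68 Mb away.

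Cluster 1 holds CpGs 1 to 11 (chr24:36376704-36376793) and had a mean level of 77.0% over the 18 libraries. Cluster 2, CpGs 12 to 16 (chr24:36378484-36378521), had a mean of 68.9%. Cluster 3 is the largest, with CpGs 17 to 35 (chr24:36381768-36382123) and a mean of 62.0%. It was also the steadiest, since its mean ranged over 3.17 percentage points between libraries.

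Cluster 4, CpGs 36 to 39 (chr24:36383060-36383193), had a mean of 62.8%. Cluster 5, CpGs 40 to 55 (chr24:36386413-36386533), had a mean of 73.5% and ranged over 4.02 points. Cluster 6, CpGs 56 to 58 (chr24:36386660-36386741), had a mean of 53.1%. These 3 clusters fill the middle of the stretch, and cluster 5 holds the lowest and the highest CpG of all 94.

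Cluster 7, CpGs 59 to 73 (chr24:36388995-36389165), had a mean of 69.1%, and cluster 8, CpGs 74 to 86 (chr24:36389318-36389474), a mean of 76.0%. Cluster 9, CpGs 87 to 90 (chr24:36390585-36390637), had a mean of 72.9%. Cluster 10, CpGs 91 to 94 (chr24:36390820-36390871), had the lowest mean, 52.4%, and the widest range between libraries, 22.2 points. Clusters 3 and 5, the steadiest, hold more CpGs than cluster 10. In Low Control 3, CpGs 91 to 94 had 80.0%, 53.3%, 20.0% and 26.7%, steps as coarse as few reads give. Whether depth sets the range of cluster 10 was not tested.

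**Figure D2:**
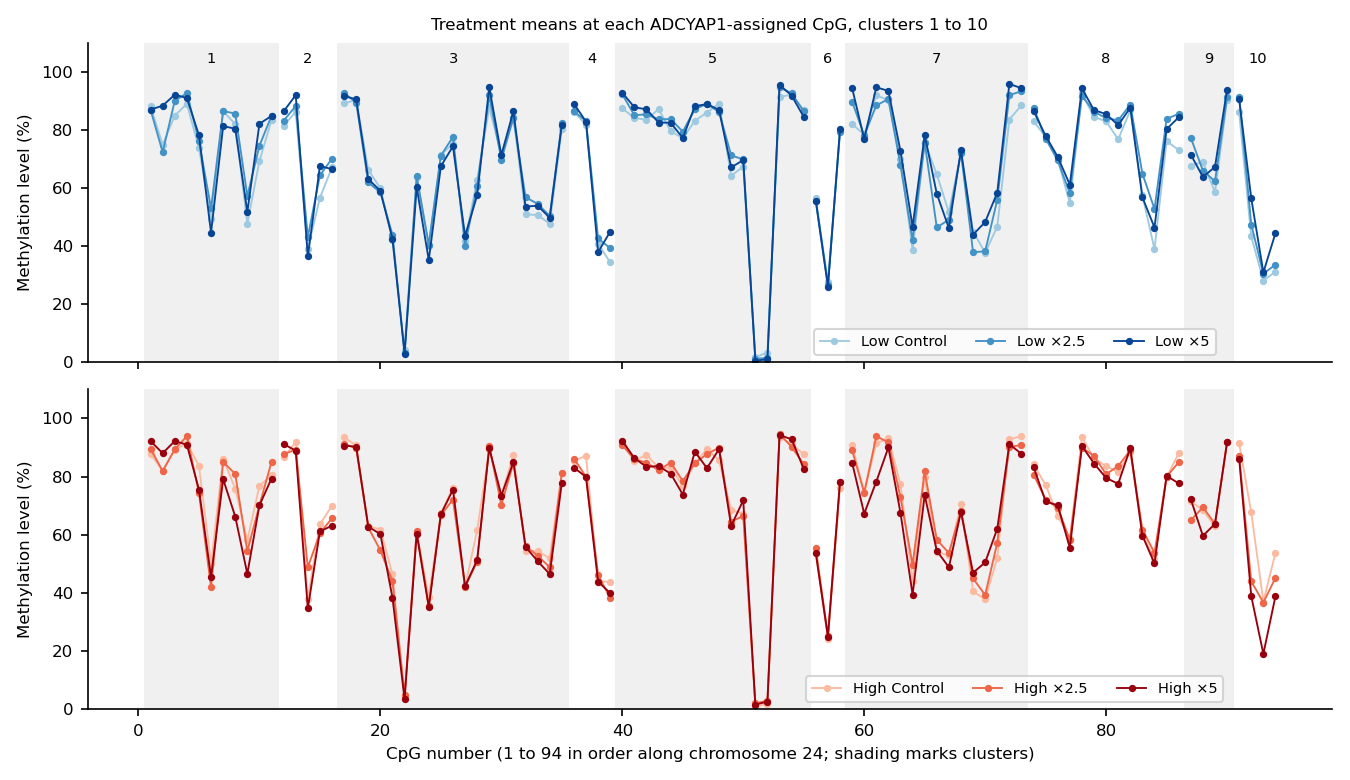
Mean methylation level (%) of each of the 94 CpGs in the 3 Low treatments (top) and the 3 High treatments (bottom), with CpGs in order along the chromosome, shading and numbers 1 to 10 marking the clusters, and lines joining CpGs of a cluster. The lines of the treatments lie close together at most CpGs, CpGs 22, 51 and 52 are near 0, and the lines part most at the last cluster.

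CpG 51 (36386493) had the lowest mean level, 1.33%, and CpG 53 (36386520), in the same cluster, the highest, 94.0%. CpGs 49 to 52 lie at 4 consecutive positions, 36386491 to 36386494, with mean levels of 66.4%, 68.7%, 1.33% and 2.18%. Positions next to each other cannot both be the cytosine of a CpG on the same strand, so such neighbours belong to opposite strands. The level broke off between the second and the third of these 4 positions.

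The step from CpG 50 to CpG 51 was -67.4 points within 1 base, and that from CpG 52 to CpG 53 was 91.8 points within 26 bp. CpG 22 (36381850), at 3.73%, was the third low CpG. It lay 5 bp before CpG 23, whose mean level was 58.0 points higher. Sharp steps over a few bases therefore occurred inside cluster 3 and cluster 5, at the same places in every treatment.

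Of 9 pairs of positions 1 base apart, 8 had mean levels within 9 points of each other, and the pair CpG 50 and CpG 51 was the exception. Each of the 8 can be a single CpG read on both strands, so the 94 positions can hold fewer separate sites. Once treatment means were removed, the values of such pairs did not go together across libraries, with a median Pearson correlation of -0.08 over the 9 pairs and 18 libraries. The median was 0.21 for 94 pairs of CpGs 2 to 20 bp apart, 0.06 for 313 pairs 21 to 100 bp apart, and 0.03 for 3545 pairs more than 1 kb apart. These correlations share the same libraries, and neighbours within a fragment share reads.

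The spread between libraries of a treatment was largest at CpG 4 (36376723, residual SD of 0.91 on the log2 scale) and smallest at CpG 32 (36382025, 0.13). The median residual SD of the 94 CpGs was 0.39, and that of all tested CpGs 0.43. CpG 4 belongs to cluster 1 and had a mean level of 91.4%, and CpG 32 belongs to cluster 3 with a mean of 54.6%.

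In Low glucose most of the called CpGs were more methylated with added EM than in Control, as were most calls over all tested CpGs. In Low ×5 vs. Low Control 75% of the calls were higher, beside 74.2% of all calls. In Low ×2.5 vs. Low Control it was 75% beside 76.5%. In Low ×5 vs. Low Control, 6 of the 94 CpGs rose (background 1.78%) and 2 fell (background 0.619%). The risers were CpGs 40, 53, 59, 72, 73 and 86, and CpGs 51 and 52 fell. The median difference was 0.19 over the 94 and 0.10 over all tested CpGs, so both were shifted upwards.

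Of these 8 calls, CpGs 59 and 72 were called again under every alternative processing that held them (10 of 10 and 9 of 9). The count was 3 without replicate 2 and 3 without replicate 3 of every treatment. It was 6 after centring (4 up, 2 down, backgrounds 0.971% and 1.31%). After quantile normalization it was 2 (2 up, none down, backgrounds 0.895% and 0.746%). Of all calls, 42.6% were up after centring and 54.5% after quantile normalization.

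In Low ×2.5 vs. Low Control, CpGs 59, 72 and 86 rose (background 1.53%) and CpG 66 fell (background 0.47%). The call on CpG 66 held in 9 of 10 alternatives and that on CpG 72 in 1 of 9. The count was 2 after centring, after quantile normalization and when replicate 2 or 3 was left out, with CpG 66 down and CpG 86 up after both scalings. The backgrounds up and down were 0.81% and 1.01% after centring and 0.848% and 0.727% after quantile normalization. In Low ×5 vs. Low ×2.5, CpG 59 rose (background 0.229%) and no CpG fell (background 0.143%), and the count was 2 without replicate 2.

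In High glucose the called CpGs were less methylated with added EM, as were most calls over all tested CpGs. Of all calls, 21.35% were higher in High ×5 vs. High Control and 33.64% in High ×2.5 vs. High Control. In High ×5 vs. High Control, CpGs 47, 61, 73, 86 and 92 fell (background 1.08%) and none rose (background 0.292%). The median difference was -0.19 over the 94 and -0.08 over all tested CpGs. The calls on CpGs 61, 86 and 92 each held in 8 of 10 alternatives, but no CpG was called without replicate 2 and 2 were called without replicate 1. After centring 4 CpGs fell (background 0.759%) and CpG 70 rose (background 0.486%). After quantile normalization 3 fell (background 0.654%) and CpG 70 rose (background 0.524%).

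In High ×2.5 vs. High Control, CpGs 28 and 92 fell (background 0.676%) and none rose (background 0.343%). The count was 0 when replicate 2 or 3 was left out, and 1 without replicate 1 and after either scaling. Of all tested CpGs, 0.581% were called lower after centring and 0.54% after quantile normalization. In High ×5 vs. High ×2.5, CpGs 8 and 61 fell (background 1.02%) and none rose (background 0.454%), and 1 was called when replicate 1 or 3 was left out.

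At the Control level of EM the called CpGs were more methylated in High than in Low, as were 71.8% of all calls. In High Control vs. Low Control, 7 CpGs rose (17, 59, 72, 73, 86, 92 and 94; background 1.38%) and none fell (background 0.543%). The count was between 3 and 4 when any replicate number was left out. After centring 5 CpGs rose (background 0.851%) and none fell (background 0.978%). After quantile normalization 4 rose (background 0.806%) and none fell (background 0.8635%). At ×2.5 no CpG was called in High vs. Low (backgrounds 0.308% up and 0.698% down), and 5 of the 94 had an unadjusted limma p-value under 0.05 (background 5.14%).

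At ×5 the direction was the reverse of that at the Control level. Of all calls over the tested CpGs there, 19% were higher in High. In High ×5 vs. Low ×5, CpGs 47, 59, 61, 72 and 73 fell (background 1.3%) and CpGs 51 and 52 rose (background 0.305%). The count was 4 without replicate 1 and 3 without replicate 2 or 3. After centring 3 fell (background 0.74%) and 2 rose (background 0.67%). After quantile normalization 3 fell (background 0.6%) and none rose (background 0.43%).

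High ×5 vs. Low Control compares the treatments at the opposite corners of the design. CpGs 8, 28 and 61 fell (background 0.813%), and none rose (background 0.94%). No CpG was called without replicate 3, and after quantile normalization 3 fell (background 1.1%) and 1 rose (background 1.14%). For glucose averaged over the EM levels no CpG was called (background 1.08%, both directions). There, 4 of the 94 had an unadjusted limma p-value under 0.05 (background 5.23%), and 2 were called without replicate 2.

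The change with EM differed between the glucose levels at more CpGs than were called in any single contrast. The same held over all tested CpGs. The interaction is the change from Control in High minus the change from Control in Low. At ×5 it was called below 0 at 9 CpGs (10, 47, 59, 61, 72, 73, 86, 92 and 94; background 2.23%) and above 0 at 2 (51 and 52; background 0.568%). Its median was -0.40 over the 94 and -0.18 over all tested CpGs.

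After centring the medians were -0.15 and 0.07, with 6 calls below 0 (background 1.16%) and 2 above it (background 1.21%). After quantile normalization 7 CpGs were called below 0 (background 0.898%) and none above it (background 0.708%). The 7 are CpGs 59, 61, 72, 73, 86, 92 and 94. The count was 6 without replicate 2 and 5 without replicate 3. The interactions of CpGs 59 and 72 were called in every alternative, and those of CpGs 61, 86 and 92 in 9 of 10.

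At ×2.5 the interaction was below 0 at CpGs 72, 73 and 86 (background 1.42%) and above 0 at CpG 66 (background 0.435%). CpGs 66 and 86 were the 2 called after centring and after quantile normalization, and the count was 2 without replicate 2 or 3. Backgrounds above and below 0 were 0.87% and 0.832% after centring and 0.667% and 0.771% after quantile normalization. The F-test of the 6 treatments called CpGs 59, 61, 72, 73 and 86 (background 1.44%), and 2 without replicate 2 and 1 without replicate 3.

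No CpG of the 94 had a Benjamini-Hochberg adjusted p-value under 0.05 in limma in any of these comparisons. The smallest was 0.0616, at CpG 59 in the interaction at ×5. The numbers of CpGs with an unadjusted p-value under 0.05 were 14 in Low ×5 vs. Low Control (background 8.57%), 14 in High ×5 vs. High Control (background 6.21%) and 17 in the interaction at ×5 (background 9.63%). Over the 10 contrasts 39 calls fell on 16 CpGs, 11 of them were called in 2 or more contrasts, and 78 were called in none. Of all tested CpGs, 9.68% were called in at least 1 contrast and 3.52% in 2 or more. Contrasts share libraries, so the calls of a CpG are not independent of each other.

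**Figure D3:**
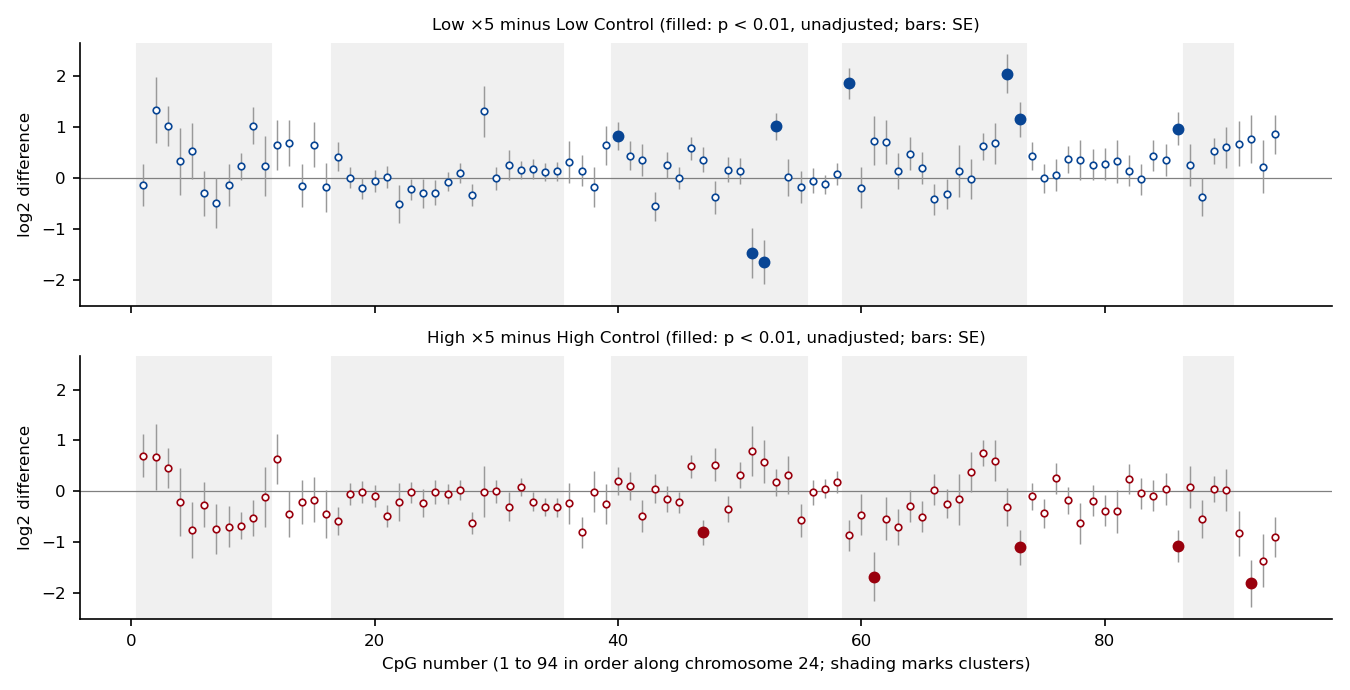
Difference of mean M-values (log2) at each of the 94 CpGs, in order along the chromosome, for Low ×5 minus Low Control (top) and High ×5 minus High Control (bottom); bars are ± 1 SE from limma, filled points have an unadjusted p-value under 0.01 and shading marks alternate clusters. Of the filled points, 6 of 8 lie above 0 at the top and 5 of 5 lie below 0 at the bottom.

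The number of called CpGs differed between clusters, which also differ in size. Cluster 7, of 15 CpGs, held 5 of the 16 (CpGs 59, 61, 66, 72 and 73) with 18 of the 39 calls. Cluster 5, of 16 CpGs, also held 5 (CpGs 40, 47, 51, 52 and 53) with 8 calls. Cluster 3, of 19 CpGs, and cluster 10, of 4, held 2 each. Clusters 1 and 8, of 11 and 13 CpGs, held 1 each. Clusters 2, 4, 6 and 9, with 16 CpGs in all, held none. Whether the calls were spread unevenly beyond cluster size was not tested.

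The mean of the last 4 CpGs, cluster 10, was called in 5 of the 10 contrasts. For each library the mean level of the cluster was 52.0%, 44.3% and 45.0% in Low Control (47.1% ± 4.28), 53.8%, 47.1% and 51.2% in Low ×2.5 (50.7% ± 3.33) and 54.2%, 54.0% and 58.3% in Low ×5 (55.5% ± 2.43, SD, n = 3 each). It was 62.8%, 65.6% and 58.9% in High Control (62.4% ± 3.38), 53.1%, 59.3% and 47.1% in High ×2.5 (53.2% ± 6.14) and 49.7%, 44.0% and 43.4% in High ×5 (45.7% ± 3.46). The 3 High Control libraries were higher than all other libraries except High ×2.5 2, the 3 Low ×5 libraries lay above the 3 Low Control libraries, and the 3 High ×5 libraries lay below High Control and Low ×5 with no overlap.

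The cluster's change with EM at ×5 differed between the glucose levels by -1.86 on the log2 scale (SE 0.28). In limma over the 2659 clusters of at least 3 CpGs in the whole table, the adjusted p-value was 0.00988, and it ranged from 0.00988 to 0.197 over the settings tried. This was 1 of 6 clusters with an adjusted p-value under 0.05 in this interaction, and 6.54% of all clusters were called at the unadjusted limit. The interaction was called in 9 of 9 alternatives, with a size of -1.61 after centring (limma adjusted p = 0.0195) and -1.75 after quantile normalization (limma adjusted p = 0.0179). Leaving out replicate 1, 2 or 3 gave limma adjusted p-values of 0.0382, 0.197 and 0.165.

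Within High glucose the cluster fell with ×5. The difference was -1.22 (SE 0.20), with an adjusted p-value of 0.0367 in limma, which ranged from 0.0356 to 0.990. This was the 1 cluster with an adjusted p-value under 0.05 in that contrast (background of calls 1.99%), and it was called in 9 of 9 alternatives. Leaving out replicate 1, 2 or 3 gave limma adjusted p-values of 0.224, 0.990 and 0.210. It also fell in High ×2.5 vs. High Control (-0.69, background 0.94%, 7 of 9 alternatives).

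High Control exceeded Low Control by 1.09 (background 2.93%, 9 of 9 alternatives), with an adjusted p-value of 0.0692 in limma that ranged from 0.0624 to 0.670. In Low glucose the cluster rose with ×5 by 0.63 (background 4.1%, 5 of 9 alternatives). High ×5 lay below Low ×5 (-0.77, background 2.48%, 8 of 9 alternatives). The interaction at ×2.5 was -1.01 (background 3.27%, 7 of 9 alternatives). With ×5 the cluster thus rose in Low and fell in High.

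All 4 CpGs of the cluster had an interaction below 0 at ×5, and 2 of them were called. CpG 91 (36390820) had -1.51, CpG 92 (36390828) -2.58, CpG 93 (36390859) -1.59 and CpG 94 (36390871) -1.76, with CpGs 92 and 94 called. CpG 91 is the methylated one, with treatment means from 85.9% to 91.4%, and the highest treatment mean of the others was 67.6%.

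CpG 92 carried the largest of these differences and varied widely in High ×5. Its levels were 41.5%, 35.0% and 53.3% in Low Control and 56.6%, 50% and 62.5% in Low ×5. They were 71.8%, 69.6% and 61.5% in High Control, 51.4%, 45.0% and 35.3% in High ×2.5 and 57.1%, 20.0% and 39.5% in High ×5. High Control did not overlap with High ×2.5 or High ×5, and High ×5 2 was the lowest library of all. The counting error of these levels, which few reads can make large, was not computed.

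In High ×5 vs. High Control CpG 92 fell by 1.81 (SE 0.47) on the log2 scale, with an adjusted p-value of 0.491 in limma, which ranged from 0.491 to 1. Without replicate 2 the difference was -1.11 and was not called. Its interaction at ×5 was -2.58 (SE 0.66), and -1.83 and not called without replicate 2. CpG 94 had mean levels of 31.2% ± 11.9 in Low Control and 53.7% ± 11.3 in High Control (SD, n = 3 each), a rise of 1.42 (SE 0.39).

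**Figure D4:**
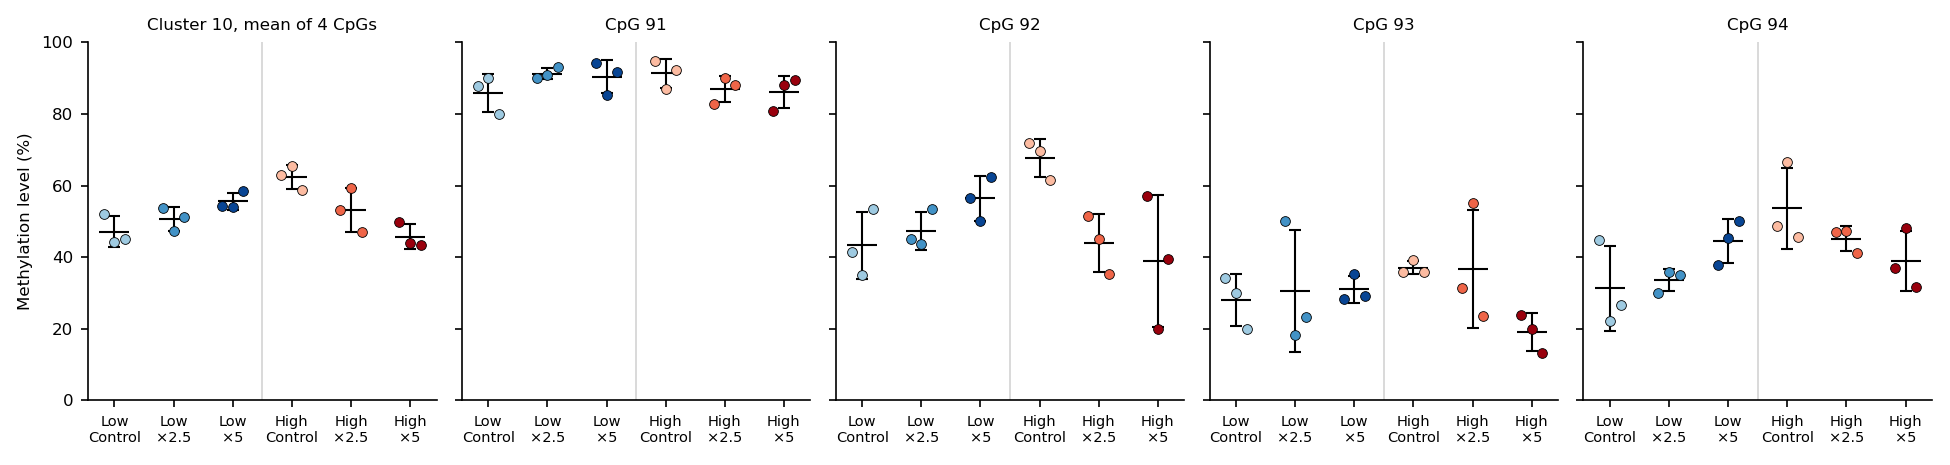
Methylation level (%) by treatment for the mean of cluster 10 and for each of its 4 CpGs, 91 to 94; points are libraries 1 to 3 from left to right, the horizontal line is the mean and the bars are ± 1 SD (n = 3). The cluster mean goes from 47.1% to 55.5% with EM in Low and from 62.4% to 45.7% in High, and CpG 91 lies above the other CpGs throughout.

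Cluster 7 was the second of the 10 clusters with calls, and the other 8 had none in any contrast. Over all tested clusters, 12.2% were called in at least 1 of the 10 contrasts, beside 2 of these 10, and 5 of them were called without replicate 1. The cluster's mean level was 67.7% ± 3.68 in Low Control, 67.8% ± 1.79 in Low ×2.5 and 71.6% ± 1.79 in Low ×5, and 69.7% ± 1.09, 70.4% ± 1.17 and 67.3% ± 2.52 in High Control, ×2.5 and ×5 (SD, n = 3 each). It rose in Low ×5 vs. Low Control (0.52, 5 of 9 alternatives) and Low ×5 vs. Low ×2.5 (0.44, background 0.263%, 5 of 9 alternatives). It was lower in High ×5 than in Low ×5 (-0.58, 7 of 9 alternatives). The interaction at ×5 was -0.86 (SE 0.20), with an adjusted p-value of 0.0992 in limma, which ranged from 0.0728 to 0.492. The F-test called clusters 7 and 10 (background 1.54%).

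CpG 59 (36388995), the first CpG of cluster 7, had the smallest p-value of the 94 in 5 of the comparisons, the F-test among them. Its levels were 80.0%, 85.7% and 80.0% in Low Control, 90.4%, 90.5% and 88.2% in Low ×2.5 and 94.4%, 94.7% and 93.8% in Low ×5. They were 88.4%, 89.2% and 94.4% in High Control, 92.2%, 87.1% and 88.0% in High ×2.5 and 81.8%, 85.2% and 87.2% in High ×5. As computed with the offset, the 3 Low treatments were ordered without overlap from Control to ×5. In High the ×5 libraries had the lowest mean and did not overlap with High Control. The offset lowers high levels where reads are few, and the order without it was not tested.

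From Low Control to Low ×5 CpG 59 rose by 1.86 (SE 0.30), with an adjusted p-value of 0.165 in limma, which ranged from 0.165 to 0.749. Its interaction at ×5 was -2.73 (SE 0.43), with a limma adjusted p-value of 0.0616 that ranged from 0.0616 to 0.694. It also rose in Low ×2.5 vs. Low Control (0.93), Low ×5 vs. Low ×2.5 (0.93) and High Control vs. Low Control (1.16), and was lower in High ×5 than in Low ×5 (-1.57). The calls in Low ×2.5 vs. Low Control and Low ×5 vs. Low ×2.5 held in 4 of 10 and 3 of 10 alternatives. High ×5 vs. High Control gave -0.86, which was not called.

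CpGs 72 (36389157) and 73 (36389165), at the other end of the cluster, followed a like course. CpG 72 had 75.0%, 90.5% and 85.0% in Low Control and 95.3%, 96.5% and 95.4% in Low ×5, a rise of 2.06 (SE 0.37). It had 93.0%, 94.4% and 90.7% in High Control and 90.9%, 88.9% and 93.6% in High ×5. Low Control 1 was the lowest library of all at this CpG, and all Low ×5 libraries were above all Low Control libraries. These levels hold the offset, which caps high levels where reads are few. In Low Control 2, CpGs 61, 62, 72 and 73 all had 90.5%. Whether the separation holds without the offset was not tested.

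CpG 73 rose from 88.4% ± 2.97 in Low Control to 94.3% ± 2.02 in Low ×5 and fell from 94.0% ± 0.821 in High Control to 87.8% ± 2.90 in High ×5 (SD, n = 3 each). On the log2 scale these differences were 1.15 (SE 0.34) and -1.10 (SE 0.34), and their calls held in 4 of 9 and 6 of 9 alternatives. The interactions at ×5 were -2.36 at CpG 72 and -2.25 at CpG 73.

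CpG 61 (36389011), 16 bp after CpG 59, was the CpG at which High ×5 stood apart from every other treatment. Its levels were 78.8%, 81.5% and 74.5% in High ×5, a mean of 78.2% ± 3.54 (SD, n = 3). The other 15 libraries lay between 84.2% and 97.2%, with treatment means of 91.8%, 88.4% and 94.6% in Low Control, ×2.5 and ×5, and 91.4% and 93.9% in High Control and ×2.5. It was the only one of the 94 with all High ×5 libraries below all others (background 0.279%), and none had them all above (background 0.108%). This count was chosen after the values were seen.

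CpG 61 fell in High ×5 vs. High Control (-1.67, SE 0.48), in High ×5 vs. High ×2.5 (-2.14, SE 0.48) and in High ×5 vs. Low Control (-1.70, SE 0.48). In High ×5 vs. Low ×5 the difference was -2.43 (SE 0.48), with an adjusted p-value of 0.326 in limma, which ranged from 0.0394 to 1. Its contrasts of High ×5 with High ×2.5 and with Low ×5 were called in 10 of 10 alternatives. CpG 60, between CpGs 59 and 61, was called in none.

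CpG 66 (36389050), with intermediate levels, fell in the contrast in which CpGs 59 and 72 of its cluster rose. It had 62.5%, 71.4% and 60.0% in Low Control, 39.6%, 54.7% and 44.7% in Low ×2.5 and 59.8%, 52.6% and 61.5% in Low ×5. All Low ×2.5 libraries were below all Low Control libraries, a fall of 1.09 (SE 0.30) on the log2 scale, with an adjusted p-value of 0.441 in limma that ranged from 0.399 to 0.857. High Control, ×2.5 and ×5 had means of 54.0% ± 4.67, 58.3% ± 2.40 and 54.5% ± 9.52 (SD, n = 3 each), and the interaction at ×2.5 was 1.35 (SE 0.43).

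CpG 86 (36389474), the last CpG of cluster 8, was called in 4 contrasts while the other 12 CpGs of its cluster were called in none. Its levels were 80.6%, 71.8% and 66.7% in Low Control, 82.9%, 87.8% and 85.7% in Low ×2.5 and 80.7%, 85.5% and 86.7% in Low ×5. They were 85.7%, 90.2% and 88.3% in High Control, 87.1%, 87.0% and 80.7% in High ×2.5 and 70.8%, 80.0% and 82.1% in High ×5. Low Control and High ×5 were the lowest treatments, and High Control did not overlap with either.

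CpG 86 rose by 1.43 (SE 0.32) in High Control vs. Low Control, with an adjusted p-value of 0.411 in limma, which ranged from 0.180 to 0.833. It rose by 1.10 (SE 0.32) in Low ×2.5 vs. Low Control and by 0.98 (SE 0.32) in Low ×5 vs. Low Control, and fell by 1.07 (SE 0.32) in High ×5 vs. High Control. The call in High Control vs. Low Control held in 8 of 10 alternatives and was lost without replicate 2 or 3, and those in Low held in 7 of 10 at ×2.5 and in 5 of 10 at ×5, where centring and quantile normalization also ended the call. Its interactions were -2.05 (SE 0.45) at ×5 and -1.49 (SE 0.45) at ×2.5.

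**Figure D5:**
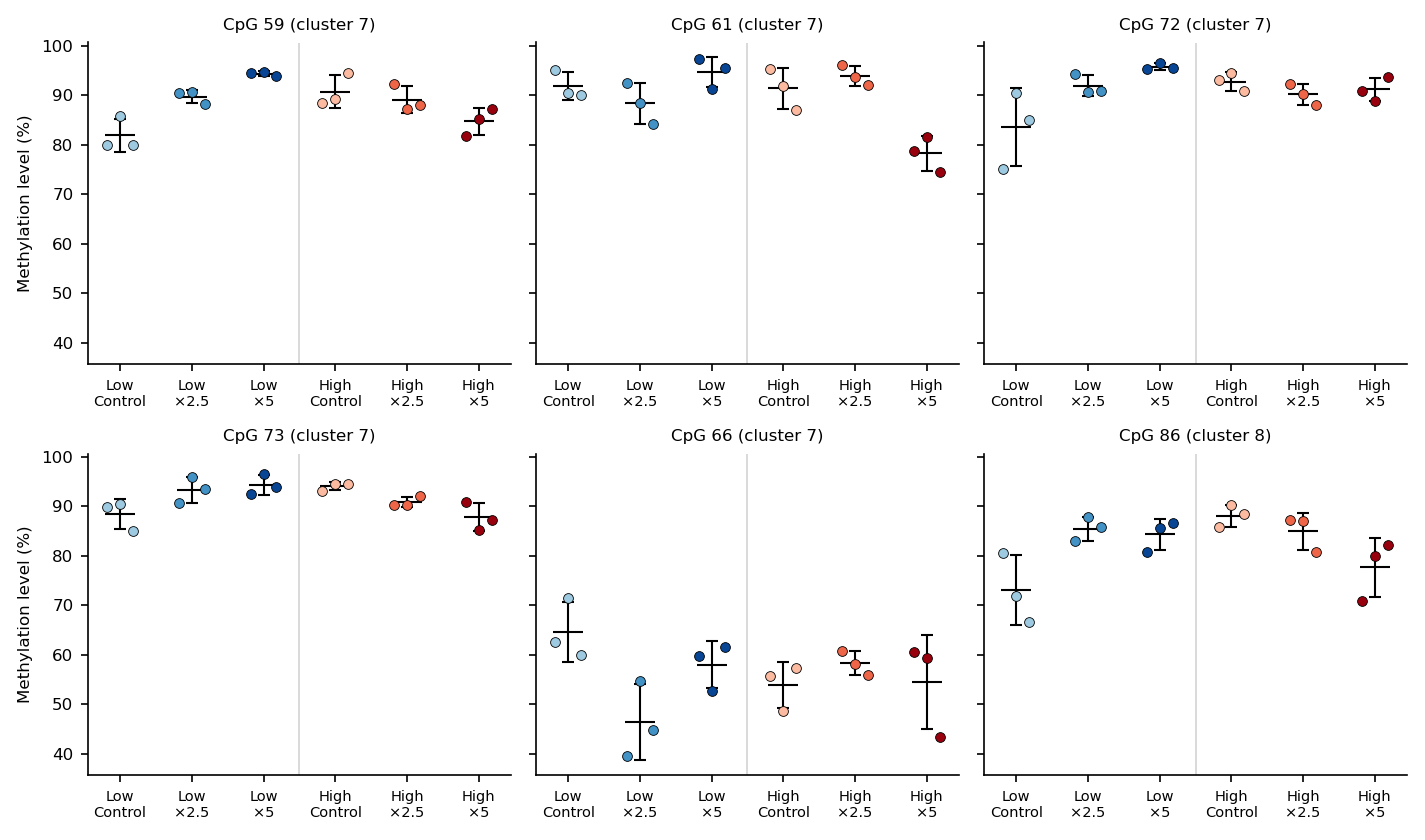
Methylation level (%) by treatment at CpGs 59, 61, 72, 73 and 66 of cluster 7 and CpG 86 of cluster 8; points are libraries 1 to 3 from left to right, the horizontal line is the mean and the bars are ± 1 SD (n = 3), and the axis does not start at 0. CpG 59 rises from 81.9% to 94.3% with EM in Low, and CpG 61 in High ×5, at 78.2%, lies below all other treatments.

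In cluster 5 the 2 nearly unmethylated positions, which can be the 2 strands of a single CpG, fell in Low ×5 vs. Low Control. In this contrast CpGs 40 and 53 rose and the other 12 CpGs of the cluster were not called. CpG 51 had 0.746%, 1.94% and 2.67% in Low Control and 0.406%, 0.621% and 0.738% in Low ×5. CpG 52 had 1.53%, 5.08% and 3.45% in Low Control and 0.683%, 1.21% and 1.14% in Low ×5. All Low ×5 libraries lay below all Low Control libraries at both CpGs, in levels that hold the offset. The offset raises levels this low where reads are few. Whether any of the calls at CpGs 51 and 52 reflect depth was not tested.

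On the log2 scale CpG 51 fell by 1.48 (SE 0.49) and CpG 52 fell by 1.65 (SE 0.43), although the means changed by under 3 percentage points (from 1.78% to 0.588% and from 3.35% to 1.01%). In High ×5 the means were 1.54% and 2.56%, higher than in Low ×5 by 1.44 and 1.41. Neither CpG was called in Low ×5 vs. Low Control after quantile normalization or without replicate 2 or 3. CpG 53, 26 bp further on, rose from 91.3% ± 1.40 in Low Control to 95.4% ± 1.37 in Low ×5 (SD, n = 3 each), a difference of 1.02 (SE 0.26). Low ×5 also held the library with the widest spread of M-values over all CpGs. CpG 53 was not called after quantile normalization or without replicate 2 or 3 either.

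CpG 47 (36386467) fell from 89.5% ± 0.490 in High Control to 82.9% ± 2.09 in High ×5 (SD, n = 3 each). This call held in 5 of 10 alternatives. CpG 48, the neighbouring position on the other strand and possibly the same CpG, was not called in any contrast. The 2 had the lowest residual correlation of the 9 such pairs (r = -0.68). CpG 40 (36386413) rose in Low ×5 vs. Low Control by 0.82 (SE 0.28), a call that held in 1 of 9 alternatives.

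In clusters 1 and 3 the called CpGs were few. CpG 8 (36376759) had the smallest p-value of the 94 for glucose averaged over EM levels, with a difference of -0.64 that was not called. Its mean levels were 81.9% ± 0.374, 85.5% ± 2.95 and 80.4% ± 3.13 in Low Control, ×2.5 and ×5, and 75.8% ± 7.47, 80.9% ± 10.3 and 66.2% ± 8.58 in High Control, ×2.5 and ×5 (SD, n = 3 each). It fell by 1.21 (SE 0.41) in High ×5 vs. High ×2.5. CpG 28 (36381912) was 50.7% ± 3.13 in High ×2.5 and 61.6% ± 5.37 in High Control (SD, n = 3 each), a fall of 0.64 (SE 0.22) that held in 3 of 10 alternatives.

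CpG 17 (36381768) rose in High Control vs. Low Control by 0.86 (SE 0.28) and held in 2 of 9 alternatives. CpG 10 (36376787) was called in the interaction at ×5 (-1.56, SE 0.51). CpG 74 (36389318), the first CpG of cluster 8, had the smallest p-value of the 94 in High ×2.5 vs. Low ×2.5, where its mean levels were 80.7% ± 3.68 and 87.6% ± 0.497 (SD, n = 3 each). That difference of -0.75 was not called.

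Across the 18 libraries the CpGs most like CpG 59 among the 94 were CpG 72 (Pearson r = 0.75), CpG 73 (r = 0.68) and CpG 86 (r = 0.61). Elsewhere in the table the 3 most like it were at position 60973 of chromosome 19 (r = 0.84), position 146631 of chromosome 2 (r = 0.83) and position 108652354 of chromosome X (r = 0.81). These are the highest of many correlations over the same 18 libraries and describe them only. The 3 CpGs of the stretch that resemble CpG 59 lie in its own cluster and in cluster 8, the next one.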

How the data were processed

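RRBS libraries of EBTr cells (18, from 6 treatments) were analysed. The authors trimmed the reads (Cutadapt), aligned them and called cytosines with Bismark 0.22.3 on bosTau8, and kept those in CpG context that passed a coverage filter. For the 31500 CpGs left they deposited M-values, on a log2 scale, of methylated over unmethylated reads, with an offset whose size is not given in the sources used here. The offset pulls values from few reads towards 0. The depth of each CpG and library was not given with the values and was not worked back from them, so no counting error was computed. Tools and versions are from the submitters' processing notes and the study's methods.

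A level in percent was computed from each M-value. Treatments were compared by two-sided tests in limma 3.58.1 under R 4.3.3, using eBayes after lmFit and contrasts.fit (4.11 prior degrees of freedom), with all libraries and a mean for each treatment in the model. The fit covered the whole table, p-values were adjusted over it by the Benjamini-Hochberg method, and calls were made at unadjusted p-values under 0.01. The study tested reads with edgeR, which M-values do not allow. Clusters end at gaps of over 100 bp, and their mean M-values were tested in the same way. Library means over the stretch were tested by exact permutation, two-sided. The scripts were tested on simulated data. Tables and plots were made with Python 3.11.15, pandas 2.3.3, scipy 1.17.1 and matplotlib 3.10.9.

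The CpGs, lists and tests were chosen with earlier results of these data known. The rule for named CpGs takes the smallest p-value of the 94 in each comparison, the lowest and highest mean level, the largest and smallest residual SD, every cluster, and the 3 CpGs of the stretch and 3 others most correlated with the CpG of smallest F-test p-value. The other called CpGs are named because their counts are small, after their values were seen. The alternatives were trended and robust eBayes, only the libraries of a contrast, a block for the replicate number, each replicate number left out, centring on the median, quantile normalization, levels as fractions, CpGs with mean levels of 10% to 90%, and the adjusted p-value as limit. For clusters, trended and robust eBayes, only the libraries of a contrast, centring, quantile normalization and fractions were added after seeing the data, as was the count of CpGs with High ×5 apart.

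Replicate numbers come from the labels. The deviations of libraries with the same number from their treatment means correlated between -0.106 and 0.115 over 45 pairs, so the numbers were not taken to pair the libraries. Replicates of a treatment differed by a root mean square of 0.508 to 0.806 on the log2 scale, so none was a repeated library. The growth, respiration and mRNA measurements of the study were not analysed here.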

Additional observations from a re-analysis of the deposited data

Results flagged for a closer look

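These results stand out because the change with EM differed between Low and High glucose, by the limma test of that difference itself at an unadjusted p-value under 0.01. At ×5 this held for 11 of the 94 CpGs (9 below 0 and 2 above, beside 2.23% and 0.568% of all tested CpGs) and at ×2.5 for 4 (3 below and 1 above, beside 1.42% and 0.435%). Of the CpGs named by rule, the differences at ×5 (High minus Low, log2) were -2.73 at CpG 59, -2.40 at CpG 61, -2.05 at CpG 86 and -2.58 at CpG 92, and those of cluster means were -0.86 in cluster 7 and -1.86 in cluster 10. At ×2.5 they were 1.35 at CpG 66, -1.49 at CpG 86 and -1.01 in cluster 10. Over all tested CpGs the median of this difference was -0.18 at ×5 and -0.12 at ×2.5, and after centring 0.07 and 0.06.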

How the results depend on the processing

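Of the values for single CpGs under the alternatives, 330 kept direction and side of the limit, 31 were no longer called, 2 became called and 6 changed sign; of those for clusters, 79 kept both and 20 were no longer called. The design has 3 libraries per treatment from tubes of 1 cell line, and the depth behind each value was not worked out. Both limit what single CpGs can show. Counts below are of the 94 CpGs. The causes of the changes were not tested.

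With Benjamini-Hochberg adjusted p-values in limma under 0.05, the 39 calls of the 10 contrasts became 0. With trended and robust eBayes, Low ×5 vs. Low ×2.5 had 0 and High ×5 vs. Low ×5 had 4. With only the libraries of a contrast, Low ×2.5 vs. Low Control had 2, Low ×5 vs. Low ×2.5 had 2, High ×2.5 vs. High Control had 1, High ×5 vs. High ×2.5 had 1 and High Control vs. Low Control had 3. After centring, Low ×2.5 vs. Low Control had 2, High ×2.5 vs. High Control had 1 and the interaction at ×2.5 had 2. Centring also reversed the mean level differences of High ×2.5 vs. Low ×2.5 (0.372 points) and of glucose over EM levels (0.185 points), and the mean M-value reversed High ×5 vs. Low Control (0.00895).

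After quantile normalization the counts were 2 in Low ×5 vs. Low Control, 2 in Low ×2.5 vs. Low Control, 0 in Low ×5 vs. Low ×2.5, 1 in High ×2.5 vs. High Control, 4 in High Control vs. Low Control, 3 in High ×5 vs. Low ×5, 7 in the interaction at ×5, 2 in that at ×2.5 and 3 in the F-test, and CpG 74 in High ×5 vs. High Control reversed to 0.0487. With levels as fractions they were 3 in Low ×5 vs. Low Control, 0 in Low ×5 vs. Low ×2.5, 1 in High ×2.5 vs. Low ×2.5, 3 in High ×5 vs. Low ×5, 1 for glucose and 2 in the interaction at ×2.5. With CpGs of 10% to 90% alone, which tests fewer CpGs, they were 2 in Low ×5 vs. Low Control, 4 in High Control vs. Low Control, 3 in High ×5 vs. Low ×5, 7 and 2 in the interactions at ×5 and ×2.5 and 3 in the F-test.

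With the replicate block the counts were 2 in Low ×2.5 vs. Low Control, 1 in High ×2.5 vs. High Control, 1 in High ×2.5 vs. Low ×2.5, 4 in High ×5 vs. Low ×5 and 1 for glucose. The libraries share only a number, since 8 of 18 correlated best with a library of their own number. CpG 61 in High ×5 vs. Low ×5 then had a limma adjusted p = 0.0394.

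Leaving out each replicate number in turn, the counts ranged from 3 to 8 in Low ×5 vs. Low Control, 2 to 6 in Low ×2.5 vs. Low Control, 1 to 2 in Low ×5 vs. Low ×2.5, 0 to 4 in High ×5 vs. High Control, 0 to 1 in High ×2.5 vs. High Control, 1 to 3 in High ×5 vs. High ×2.5, 3 to 4 in High Control vs. Low Control, 0 to 1 in High ×2.5 vs. Low ×2.5, 3 to 4 in High ×5 vs. Low ×5, 0 to 4 in High ×5 vs. Low Control, 0 to 2 for glucose, 5 to 11 and 2 to 5 in the interactions at ×5 and ×2.5 and 1 to 5 in the F-test. Clusters called in any contrast ranged from 2 to 5. Mean level differences ranged from -1.31 to 0.0525 points in High ×2.5 vs. Low ×2.5, -0.461 to 0.467 in High ×5 vs. Low Control and -0.207 to 1.03 in Low ×5 vs. Low ×2.5. At CpG 74, High ×5 vs. High Control ranged from -0.188 to 0.0740. At CpG 66, High ×5 vs. High Control ranged from -0.262 to 0.452, High ×5 vs. Low ×5 from -0.504 to 0.218 and the interaction at ×5 from -0.227 to 1.12.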
